A study of Rattus norvegicus with 8 samples.

Results

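Molecular chaperones and their cochaperones were followed in RNA of rat abdominal aorta: the Hsp70, Hsp110 and Hsp90 families, the J proteins, the BAG proteins, the chaperonin pair Hspd1 and Hspe1, and the heat shock factors. Genes were chosen by symbol alone, as those that begin with Hspa, Hsp90, Hsph, Hspd, Hspe, Dnaja, Dnajb or Dnajc, or with Bag or Hsf and a digit, leaving out 6 chaperones of the endoplasmic reticulum (Hspa5, Hspa13, Hsp90b1, Dnajb9, Dnajb11 and Dnajc3). This gave 66 of 18090 genes. Of these, 61 had a value of 1 FPKM or more in 4 or more of the 8 libraries and were tested among 11921 genes. FPKM, the deposited unit, is a gene's fragments divided by its length and by the library total. The other 5, Dnajb13, Dnajb7, Dnajc5b, Hsf2bp and Hsf5, had highest values between 0.079 and 0.896 FPKM and were not tested. Just inside that filter, Dnajc6 reached 1 FPKM in 4 libraries and Hspa1l and Hspa4l in 5 each.

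The samples were wild type (WT) rat aortas, all given batch number 1. In 4 of them a filter paper soaked in 10% FeCl3, an iron salt used to injure vessels and set off a thrombus, was wrapped around the aorta for 5 min. The 4 controls received 0.9% saline instead. The samples of a group were described as biologically independent, and the sources used here give no strain, age or time from exposure to harvest.

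Chaperones bind unfolded stretches of other proteins and help them fold. J proteins deliver clients to Hsp70 and start its ATP hydrolysis, Hsp110 and BAG proteins release the nucleotide again, and Hsp90 takes over late folding steps of kinases and receptors. When unfolded protein accumulates, the transcription factor Hsf1 binds heat shock elements, repeats of GAA and TTC in alternating orientation, and raises transcription of the inducible members. The symbols do not follow one compartment, so the cytosolic label does not hold for every gene. At least 8 of the 66 (Hspa9, Hspd1, Hspe1, Dnaja3, Dnajc11, Dnajc15, Dnajc19 and Dnajc30) encode mitochondrial proteins. At least 4 (Dnajb12, Dnajb14, Dnajc1 and Dnajc10) encode proteins of the endoplasmic reticulum, and Hsf2bp encodes a protein that binds Hsf2.

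Heat shock elements were looked for in promoter windows of RefSeq (build GRCr8), which run from 250 bases before to 50 bases after a gene's start and were found for 51 of the 66 genes. The 13-letter motif GAANNTTCNNGAA, or TTCNNGAANNTTC on the other strand, occurred in 5 of these 51 windows (9.80%) and in 218 of all 27457 windows (0.794%). The 8-letter unit GAANNTTC or TTCNNGAA, which the longer motif contains, occurred in 13 of the 51 (25.5%) and in 16.7% of all windows. The 5 genes with the long motif were Hsph1, Hspa8, Hspe1, Hspd1 and Dnaja1. They are shown because all 5 are among the 16 genes, named further on, that lay at least 1 log2 unit above the median of the other controls in saline replicate 1. The other genes of these 16 with a window lacked the long motif: Hspa1b, Hspa1l, Hspa4, Hsp90ab1, Dnaja4, Dnajb1, Dnajb5, Bag2 and Bag3. The window of Hspa1b also held no 8-letter unit. It was matched by gene ID 24472, which RefSeq names Hspa1a, so which copy this window belongs to is uncertain. Only exact matches were searched, and an element with a changed letter would be missed. Hsp90aa1 and Dnajb4 had no window. Sequences run 5′ to 3′ on the gene's strand, with the motif in capitals. The first 3 cover the 250 bases before the start of Hsph1 (chr12:10427118-10427367, plus strand), Hspa8 (chr8:50080264-50080513, plus strand) and Hspe1 (chr9:64084077-64084326, plus strand), and the last covers 29 bases just after the start of Dnaja1 (chr5:60638405-60638433, plus strand).
Hsph1: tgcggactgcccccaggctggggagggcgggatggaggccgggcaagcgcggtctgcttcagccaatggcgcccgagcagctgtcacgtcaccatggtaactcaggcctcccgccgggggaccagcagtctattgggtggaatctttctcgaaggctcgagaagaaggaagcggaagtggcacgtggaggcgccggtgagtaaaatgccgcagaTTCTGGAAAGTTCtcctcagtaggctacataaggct
Hspa8: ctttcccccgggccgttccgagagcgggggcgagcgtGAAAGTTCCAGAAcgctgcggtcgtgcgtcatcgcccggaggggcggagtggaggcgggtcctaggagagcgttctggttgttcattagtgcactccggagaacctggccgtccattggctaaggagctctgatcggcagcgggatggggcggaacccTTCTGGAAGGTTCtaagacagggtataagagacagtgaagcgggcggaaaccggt
Hspe1: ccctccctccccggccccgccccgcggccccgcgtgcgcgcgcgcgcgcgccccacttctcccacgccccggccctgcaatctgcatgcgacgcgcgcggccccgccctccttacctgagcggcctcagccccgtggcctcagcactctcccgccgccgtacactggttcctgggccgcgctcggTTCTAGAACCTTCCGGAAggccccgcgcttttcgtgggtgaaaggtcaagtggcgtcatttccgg
Dnaja1: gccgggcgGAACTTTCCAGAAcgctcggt
The Hsph1 match began 36 bases before the start, those of Hspa8 213 and 55 bases before it, and that of Dnaja1 at base 10 after it. In Hspe1, 2 overlapping matches began 65 and 60 bases before the start. Hspd1 lies head to head with Hspe1, with 289 bases between the 2 starts, and its matches are the same letters read on the other strand. A match of letters is a description of the sequence and was not tested for binding.

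Library totals recovered from the FPKM steps ran from 24304434 to 30283292 fragments. Haemoglobin genes took 16.4% to 34.1% of fragments after FeCl3, 1.30% to 1.63% in saline replicates 1, 2 and 3, and 16.5% in saline replicate 4. Smooth muscle markers, which define the labelled tissue, were found in every library (8 of 8 genes). Saline replicate 1 stood apart: its 8 smooth muscle markers summed to 27287 FPKM, against 5047 to 15675 in the other controls and 3843 to 11036 after FeCl3, and its 7 endothelial markers to 8.26, against 102 to 232 and 194 to 265. In it, 2 of 6 adipocyte markers (Lep and Cidec), 4 of 5 T and NK cell markers (all but Cd3g) and the macrophage marker Cd68 were listed at 0. So were 2 of 4 neutrophil markers (S100a8 and Mmp8) and 1 of 4 platelet markers (Ppbp). Another 4 of 7 skeletal muscle markers were at 0 there, and these stayed under 1 FPKM in every library. Saline replicate 2 stood apart by Ucp1, the uncoupling protein of brown fat, at 6272 FPKM against 0.0275 to 76.5 elsewhere. In bulk RNA of this kind, fewer cells of a type and less RNA per cell cannot be told apart.

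Several stress-inducible members stood far apart in 1 of the 4 control vessels, and this spread enters the comparison of those members with the controls. Examples in saline replicate 1 were Hspa1b, the inducible Hsp70, at 890 FPKM against 2.59 to 6.21 in the other 7 libraries, Hsph1 at 695 against 14.7 to 43.5, and Bag3 at 221 against 9.77 to 37.8. Summed over the 66 genes, this library held 11919 FPKM, the other controls 2145 to 4069 and the FeCl3 libraries 1474 to 2427. After FeCl3 none of the 61 genes changed by limma at an adjusted p under 0.05.

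**Figure D1:**
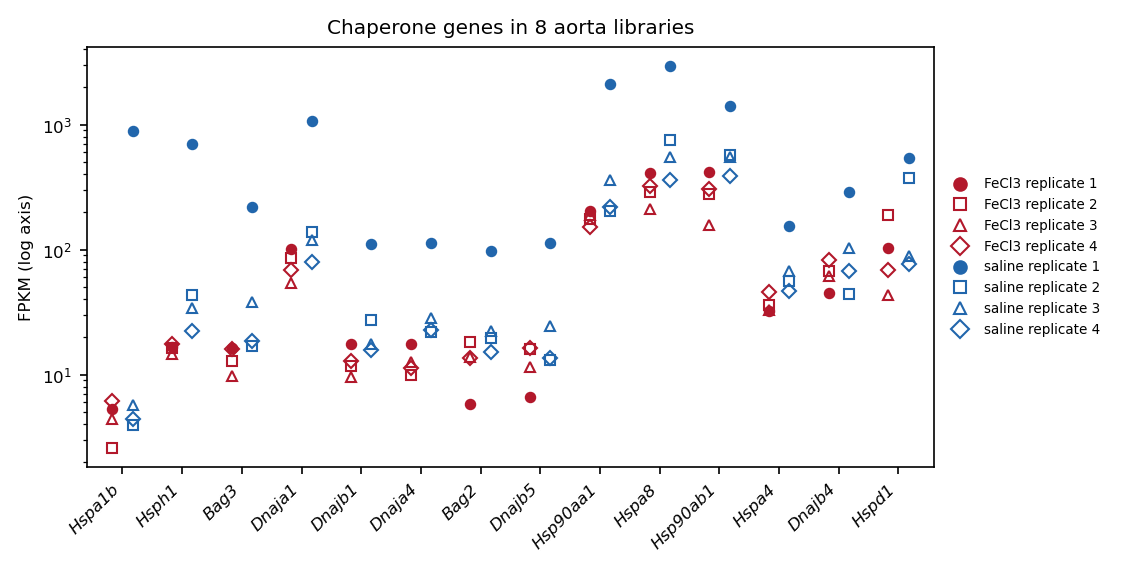
FPKM (log axis) of 14 chaperone and cochaperone genes in each library, FeCl3 in red and saline in blue, 1 symbol per replicate number. The 14 were taken from the 16 genes at least 1 log2 unit above the median of the other controls in saline replicate 1. That the filled blue circle, saline replicate 1, is the highest point for all 14 is thus no separate result. It was highest for 18 of the 61 tested genes, and Hspe1, 1 of the 16 and not drawn, was highest in saline replicate 2. Hspa1b is at 890 FPKM in saline replicate 1, where the other 7 libraries lie between 2.59 and 6.21.

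Of the 61 tested genes, 16 (26.2%) lay at least 1 log2 unit above the median of the other 3 controls in saline replicate 1, on log2(FPKM + 1), where 5.28% of all tested genes did. They were Hspa1b, Hspa1l, Hspa8, Hspa4, Hsph1, Hsp90aa1, Hsp90ab1, Dnaja1, Dnaja4, Dnajb1, Dnajb4, Dnajb5, Bag2, Bag3, Hspd1 and Hspe1. The count was 17 with FPKM rescaled to TPM (9.21% of all tested genes) and 19 with median-of-ratios scaling (11.8%). Another 10 (16.4%, against 23.6% of all tested genes) lay at least 1 log2 unit below that median. Saline replicate 1 had the highest value of the 8 libraries for 18 genes (29.5%, against 14.1% of all tested genes). Saline replicate 2 was highest for another 18 (29.5%, against 27.4%) and saline replicate 3 for 14 (23.0%, against 25.5%). With 1 library of this kind there is no replicate of it, and these shares are descriptions. The smooth muscle markers moved with the pattern, 7 of 8 being highest in this library. The immediate early genes, which respond fast to handling and injury, summed to 1129 FPKM in it. The sums were 759 to 1078 in the other controls and 656 to 1497 after FeCl3. Of these 11 genes only 1, Dusp1 at 455 FPKM, was highest in saline replicate 1. The part of both lists in the result was not tested.

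**Figure D2:**
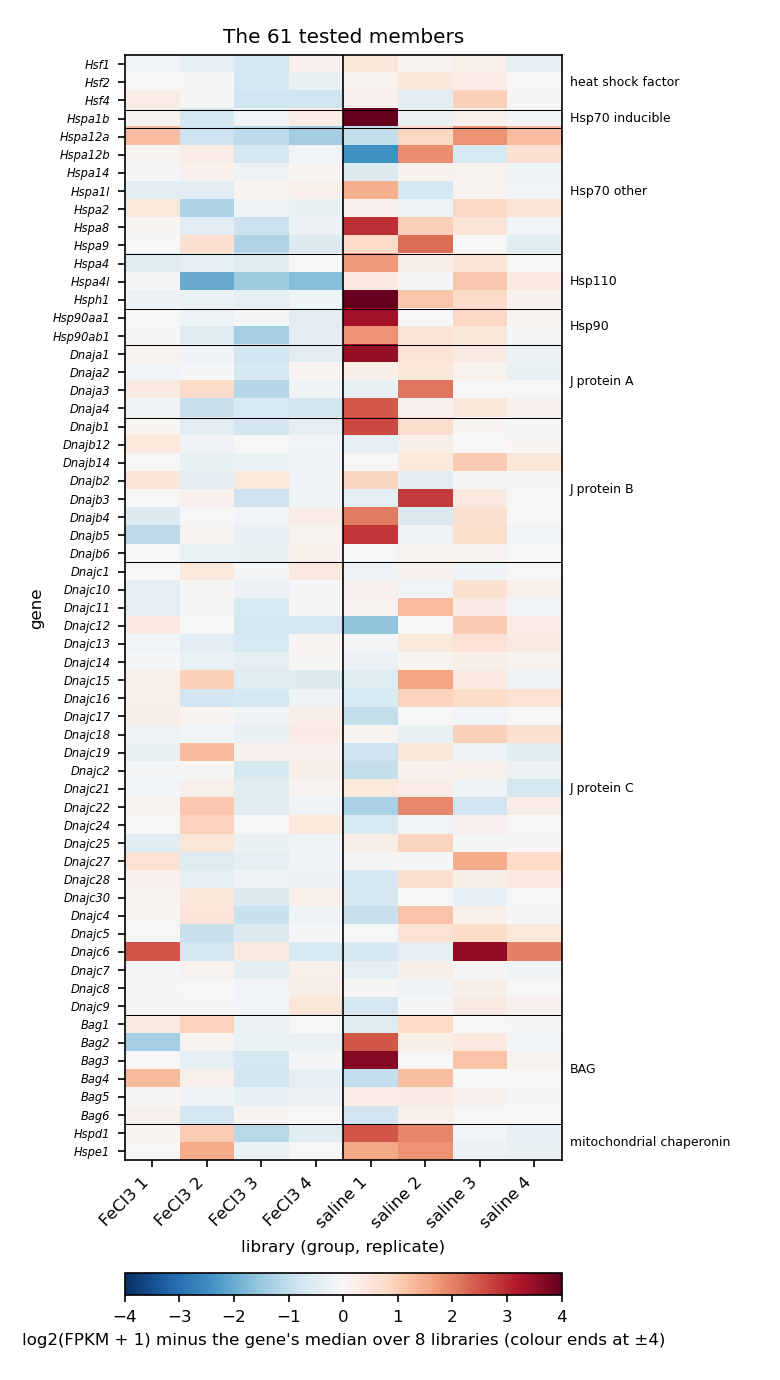
Each of the 61 tested genes (vertical axis, grouped by family) in each library (horizontal axis), as log2(FPKM + 1) minus the gene's own median over the 8 libraries, with the colour scale ending at 4 in either direction. In the saline 1 column the darkest red cells are those of Hspa1b and Hsph1, and the saline 2 column is red for mitochondrial members such as Hspa9, Dnaja3, Hspd1 and Hspe1.

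Across FeCl3 and saline, 46 of the 61 genes (75.4%) had a log2 fold change below 0, as did 70.2% of all tested genes. The median was -0.40 for the chaperone genes and -0.25 for all tested genes, and without saline replicate 1 it was -0.50 and -0.33. By limma with Benjamini-Hochberg adjustment 0 of the 61 changed, as did 0 of all 11921 (0%), and the smallest adjusted p among them was 0.245 (Hspa4l). At an unadjusted p under 0.05 there were 9, all lower after FeCl3 (14.8%, against 12.2% of all tested genes lower and 4.42% higher): Hspa4l, Dnajc5, Dnaja4, Dnajb14, Hsp90ab1, Hspa4, Dnajc13, Hspa8 and Hsf2. Limma voom on recovered fragments called 0 as well and had 9 at an unadjusted p under 0.05, all lower (13.1% of all tested genes were lower at that p). With a haemoglobin covariate there were 0 of the 61 lower (0.914% of all tested genes), and the median was -0.10 against -0.16 for all tested genes. With median-of-ratios scaling, which moved the median of all tested genes to -0.05, the split was 3 higher and 4 lower (4.92% and 6.56%, against 8.93% and 4.22% of all tested genes). With FPKM rescaled to TPM, which moved that median to -0.90, limma called 18 of the 61, all lower (29.5%, against 27% of all tested genes). The values of the 2 groups did not overlap for 7 genes, all lower after FeCl3 (11.5%, against 8.75% of all tested genes lower and 1.06% higher): Bag3, Dnaja4, Dnajb14, Hsf2, Hsp90aa1, Hspa4 and Hsph1. With median-of-ratios scaling only Dnaja4 and Dnajb14 of these 7 stayed separate, and the groups of the other 5 overlapped. Without saline replicate 1 there were 12 (19.7%, against 15.5%). Haemoglobin, which takes a share of every library's total, was higher after FeCl3 than in saline replicates 1, 2 and 3. In saline replicate 4 it lay inside the FeCl3 range. The part of haemoglobin in the general shift below 0 was not tested.

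**Figure D3:**
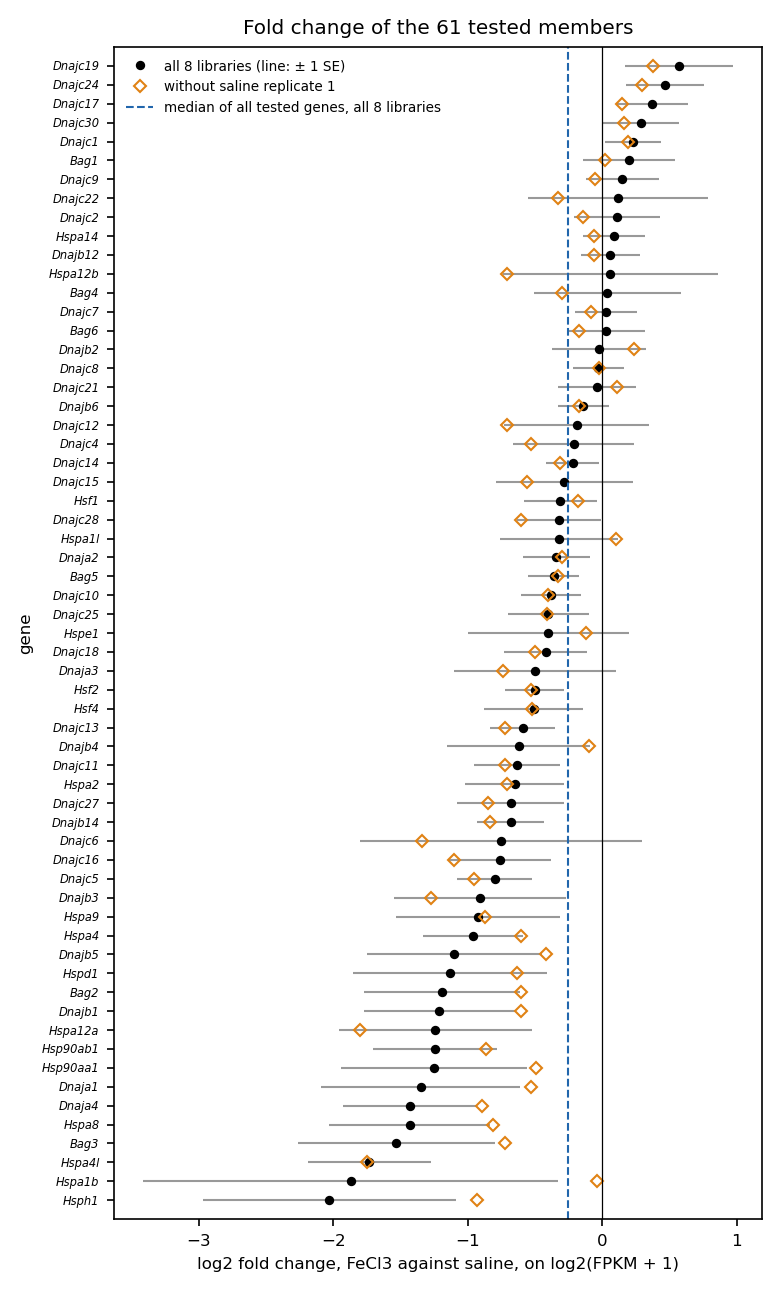
Log2 fold change, FeCl3 against saline, on log2(FPKM + 1) for the 61 tested genes (black points, bars 1 SE, 8 libraries) and without saline replicate 1 (open orange diamonds). The dashed line is the median of all tested genes, -0.25, and the largest shift between the 2 symbols is that of Hspa1b, from -1.87 to -0.04.

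Transcripts of the heat shock factors were far less abundant than those of the major chaperones. Hsf1, the master regulator, measured 9.17, 7.78, 5.97 and 11.4 FPKM in FeCl3 replicates 1 to 4 and 14.1, 10.7, 11.5 and 7.29 in saline replicates 1 to 4. The groups overlapped, and saline replicate 1 was 1.32 times the median of the other controls. Its log2 fold change was -0.31 ± 0.27 (SE; limma adjusted p = 0.559). Hsf2, a related factor active in development and proteasome stress, had 5.84, 5.52, 3.41 and 4.60 FPKM after FeCl3 and 6.74, 8.56, 7.54 and 6.07 after saline. Every FeCl3 value lay below every control, by a narrow margin, and the log2 fold change was -0.50 ± 0.22 (SE; limma adjusted p = 0.30). Hsf4, known from the eye lens, lay between 0.921 and 5.48 FPKM.

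Among the Hsp70 genes, Hspa1b was measured at 5.34, 2.59, 4.44 and 6.21 FPKM after FeCl3 and at 890, 3.95, 5.69 and 4.42 after saline. A single control was thus 201 times the median of the other 3, which lay inside the FeCl3 range. On the log2 scale the fold change was -1.87 ± 1.54 (SE; limma adjusted p = 0.538), and it became -0.04 ± 0.29 (adjusted p = 0.934) without that library. Hspa1b has a near-identical neighbour, Hspa1a, and RefSeq gives the gene ID that matched this symbol (24472) the name Hspa1a, so the value may hold reads of both copies and is uncertain in that respect. Hspa1l, the testis-enriched gene beside them, reached 6.07 FPKM in saline replicate 1 and 0.610 to 2.02 elsewhere.

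Hspa8, the constitutive Hsp70 that also uncoats clathrin vesicles, had the highest mean level of all 66 genes. Its values were 412, 289, 213 and 325 FPKM after FeCl3 and 2937, 748, 549 and 360 after saline. Saline replicate 1 was 5.34 times the median of the other controls, and saline replicate 4 lay inside the FeCl3 range, so the groups overlapped. The fold change was -1.43 ± 0.60 on the log2 scale (SE; limma adjusted p = 0.291), and -0.81 ± 0.37 without saline replicate 1 (adjusted p = 0.293). Hspa2, known from the testis, spanned 3.70 to 18.5 FPKM and Hspa14, a ribosome-bound Hsp70, 5.39 to 9.41, with overlapping groups in both.

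Hsp110 proteins are relatives of Hsp70 that act as its nucleotide exchange factors. All 3 genes had negative fold changes, as did 70.2% of all tested genes. The 3 were also negative without saline replicate 1 (78.2% of all tested genes) and with median-of-ratios scaling (54.3%). With TPM all 61 chaperone genes were negative, so that scaling adds nothing about these 3. Hsph1 measured 16.8, 16.3, 14.7 and 17.6 FPKM after FeCl3 and 695, 43.5, 34.1 and 22.2 after saline. The 4 FeCl3 values agreed closely (16.4 ± 1.22, SD, n = 4) and every control was higher, also without the highest one. The fold change was -2.03 ± 0.94 (SE, log2; limma adjusted p = 0.314) and -0.93 ± 0.26 without saline replicate 1 (adjusted p = 0.270). Hspa4 stood at 32.2, 36.4, 33.0 and 46.0 FPKM after FeCl3 and at 154, 55.9, 67.7 and 46.5 after saline. Its groups were separate, but FeCl3 replicate 4 and saline replicate 4 nearly touched, and the log2 fold change was -0.96 ± 0.37 (SE; limma adjusted p = 0.266). Hspa4l, the third paralog, had 4.5, 0.334, 0.983 and 0.655 FPKM after FeCl3 and 6.06, 4.19, 10.4 and 5.95 after saline. Only FeCl3 replicate 1 reached the control range, and saline replicate 1 did not stand out (6.06 FPKM, against 5.95 in saline replicate 4). With -1.73 ± 0.46 (SE, log2; limma adjusted p = 0.245), Hspa4l had the smallest p of the 61 genes. It reached 1 FPKM in 4 saline libraries but only 1 FeCl3 library, so it passed the filter through the group where it is higher. Neither this p nor the direction of Hspa4l is read as support. Its value without saline replicate 1 was -1.75 ± 0.51 (limma adjusted p = 0.270).

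The 2 cytosolic Hsp90 genes differed in how far saline replicate 1 departed. Hsp90aa1, the inducible form, had 203, 175, 191 and 152 FPKM after FeCl3 and 2114, 203, 358 and 219 after saline. Saline replicate 1 was 9.64 times the median of the other controls, whereas saline replicate 2 was above the highest FeCl3 value only beyond the digits printed. Hsp90ab1, the constitutive form, had 418, 280, 158 and 303 FPKM after FeCl3 and 1414, 572, 553 and 388 after saline, where saline replicate 1 was 2.56 times that median. Fold changes were -1.25 ± 0.69 for Hsp90aa1 (SE, log2; limma adjusted p = 0.374) and -1.24 ± 0.46 for Hsp90ab1 (adjusted p = 0.260), and without saline replicate 1 they were -0.49 ± 0.29 and -0.86 ± 0.38.

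J proteins, the largest family here, had 37 of 40 genes tested. Their median log2 fold change was -0.32 (all tested genes: -0.25), with 27 below 0 (70.2% of all tested genes were). With median-of-ratios scaling it was -0.11 (all tested genes: -0.05), with 20 below 0 (54.3% of all tested genes were). Dnaja1, a farnesylated partner of Hspa8, measured 102, 85.3, 54.1 and 68.7 FPKM after FeCl3 and 1076, 138, 119 and 79.7 after saline. Saline replicate 1 was 9.05 times the median of the other controls, and saline replicate 4 fell inside the FeCl3 range. Dnajb1, the classical Hsp40, had 17.6, 11.8, 9.62 and 12.8 FPKM after FeCl3 and 110, 27.5, 17.7 and 15.8 after saline, so that FeCl3 replicate 1 lay above saline replicate 4 and the other FeCl3 values below all controls. For Dnaja4, another type A partner of Hsp70, the groups were separate: 17.6, 10.0, 12.6 and 11.4 FPKM after FeCl3 against 113, 22.1, 28.3 and 22.6. Log2 fold changes of these 3 were -1.35 ± 0.74 for Dnaja1 (SE; limma adjusted p = 0.372), -1.21 ± 0.56 for Dnajb1 (adjusted p = 0.315) and -1.43 ± 0.50 for Dnaja4 (adjusted p = 0.258). Without saline replicate 1 they were -0.53 ± 0.31, -0.60 ± 0.29 and -0.89 ± 0.25.

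Dnajb4, a type B relative of Dnajb1, did not separate the groups, with 45.4, 67.6, 62.0 and 83.4 FPKM after FeCl3 and 289, 44.4, 103 and 67.3 after saline. Its fold change was -0.62 ± 0.53 (SE, log2; limma adjusted p = 0.557) and -0.10 ± 0.35 without saline replicate 1. Dnajb14, a membrane protein of the endoplasmic reticulum, gave 4.66, 3.73, 3.77 and 4.28 FPKM after FeCl3 and 4.88, 6.66, 11.0 and 7.11 after saline. Here the groups did not overlap and saline replicate 1 was the lowest control, not the highest. The fold change was -0.68 ± 0.25 (SE, log2; limma adjusted p = 0.260), and -0.83 ± 0.23 without saline replicate 1. Dnajc5, the cysteine string protein of secretory vesicles, had 17.4, 8.66, 11.4 and 16.4 FPKM after FeCl3 and 16.8, 25.8, 29.4 and 23.4 after saline. Only saline replicate 1 overlapped the FeCl3 range, and the fold change was -0.80 ± 0.28 (SE, log2; limma adjusted p = 0.258).

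Most type C J proteins carry domains beyond the J domain and serve single tasks. Only 1 of the 25 tested, Dnajc21, had its highest value in saline replicate 1 (14.1% of all tested genes did). Their median log2 fold change was -0.21 (all tested genes: -0.25), with 9 above 0 and 16 below (29.8% and 70.2% of all tested genes). Under median-of-ratios scaling it turned to 0.01 (all tested genes: -0.05), with 14 above and 11 below (45.7% and 54.3% of all tested genes). The 5 highest fold changes of all 61 genes were in this family, and none passed the test. Dnajc19, a part of the mitochondrial import motor, had 11.4, 35.7, 16.1 and 16 FPKM after FeCl3 and 7.61, 20.4, 12.6 and 9.87 after saline, with FeCl3 replicate 2 and saline replicate 2 high in their groups. Dnajc24, which serves the diphthamide modification of elongation factor 2, had 6.25, 12.9, 6.29 and 8.78 against 3.76, 5.84, 7.26 and 6.36. Dnajc17, a nuclear J protein, had 5.2, 4.42, 3.57 and 5.23 against 1.69, 4.22, 3.74 and 4.11. Dnajc30, a mitochondrial J protein, had 15.6, 19.4, 9.02 and 16.1 FPKM after FeCl3 and 8.67, 14.2, 10.9 and 13.8 after saline. Dnajc1, of the endoplasmic reticulum, had 7.54, 10.2, 6.93 and 9.99 against 6.43, 8.54, 6.47 and 7.32. In all 5 genes saline replicate 1 was the lowest of the 8 libraries, and the groups overlapped. For Dnajc30 and Dnajc1 it was lowest by a narrow margin. Fold changes ran from 0.23 ± 0.21 for Dnajc1 to 0.57 ± 0.40 for Dnajc19 (SE, log2; limma adjusted p = 0.581 and 0.467), and they were 0.19 and 0.38 without saline replicate 1. All 5 were negative with FPKM rescaled to TPM, where all 61 genes were. With median-of-ratios scaling the FeCl3 values of Dnajc17, Dnajc24 and Dnajc30 were all above the controls, 3 of 61 genes (4.92%, against 4.24% of all tested genes).

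BAG proteins bind the ATPase domain of Hsp70 and release its nucleotide, and the 6 genes split into those that stood out in saline replicate 1 and those that did not. Bag3, which with Hspb8 directs damaged filament proteins of muscle to autophagy, measured 16.3, 12.9, 9.77 and 16 FPKM after FeCl3 and 221, 17.0, 37.8 and 18.5 after saline. All controls were above all FeCl3 values, the lowest by less than 1 FPKM, and saline replicate 1 was 11.9 times the median of the other controls. The fold change was -1.53 ± 0.73 (SE, log2; limma adjusted p = 0.321), and -0.72 ± 0.33 without saline replicate 1 (adjusted p = 0.293). Bag2, an inhibitor of the Chip ubiquitin ligase, was 4.97 times that median in saline replicate 1. In contrast Bag1, Bag4 and Bag6 were at 0.708, 0.354 and 0.559 times it, and Bag5 at 1.07 times.

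A second control, saline replicate 2, was high in most of the mitochondrial members. The genes Hspd1 and Hspe1 encode Hsp60 and Hsp10, the barrel and lid of the mitochondrial chaperonin. Hspd1 measured 103, 190, 43.6 and 68.2 FPKM after FeCl3 and 540, 371, 88.6 and 76.1 after saline. Hspe1 measured 151, 427, 126 and 155 FPKM after FeCl3 and 445, 529, 131 and 124 after saline. In both genes saline replicates 1 and 2 and FeCl3 replicate 2 were the 3 highest libraries, and the groups overlapped. Their log2 fold changes were -1.13 ± 0.72 and -0.40 ± 0.60 (SE; limma adjusted p = 0.436 and 0.746).

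Hspa9, the mitochondrial Hsp70 and singled out here after its values were seen, reached 425 FPKM in saline replicate 2 and 137 in FeCl3 replicate 2, against 154, 88.9 and 63.7 in the other controls and 38.1 to 88.6 in the other FeCl3 libraries. Of the 8 mitochondrial genes listed above, 6 lay at least 1 log2 unit above the median of the other 3 controls in saline replicate 2: Hspa9, Hspd1, Hspe1, Dnaja3, Dnajc11 and Dnajc15. Over all 61 genes that count was 11 (18.0%, against 14.5% of all tested genes). Ucp1 was highest in the same library at 6272 FPKM, and its second highest value, 76.5 FPKM, was that of FeCl3 replicate 2. Without Ucp1 the other 5 adipocyte markers summed to 1541 FPKM in saline replicate 2 and to 0.482, 67.4 and 553 in the other controls. After FeCl3 they summed to 2205, 1587, 81.7 and 528. All 5 lay at least 1 log2 unit above the median of the other 3 controls in saline replicate 2, and 3 of the 5 were highest of the 8 libraries there. The part of these markers in the mitochondrial genes' values was not tested.

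Some low members varied with markers of single cell types, and these were chosen after their values were seen. Hspa12b, a distant Hsp70 relative of endothelial cells, had 5.54, 6.37, 2.71 and 4.52 FPKM after FeCl3 and 0.0943, 20.6, 2.91 and 8.11 after saline. Of the 7 endothelial markers, all were lowest in saline replicate 1, as Hspa12b was, and 3 (Cdh5, Tie1 and Egfl7) were highest in saline replicate 2, as Hspa12b was. The other 4 were highest in FeCl3 libraries, and Vwf in saline replicate 2 was 0.423 times the median of the other controls. The endothelial cadherin gene Cdh5 had 43.0 FPKM in saline replicate 2 and 0.208 in saline replicate 1. Dnajc6, the neuronal auxilin that uncoats clathrin vesicles, had 8.47, 0.0353, 1.09 and 0.0789 FPKM after FeCl3 and 0.0638, 0.291, 18.1 and 5.68 after saline. Its 3 highest libraries, FeCl3 replicate 1 and saline replicates 3 and 4, were also the highest for the Schwann cell gene Sox10, at 13, 15.8 and 15.9 FPKM. Hspa12a, the Hsp70 relative found in brain, was highest in the same 3, at 8.94, 13.8 and 9.02 FPKM, against 0.598 to 6.43 elsewhere. The 4 Schwann cell markers used summed to 92.8 to 731 FPKM after FeCl3 and 258 to 1301 after saline, and their part in these values was not tested.

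**Figure D4:**
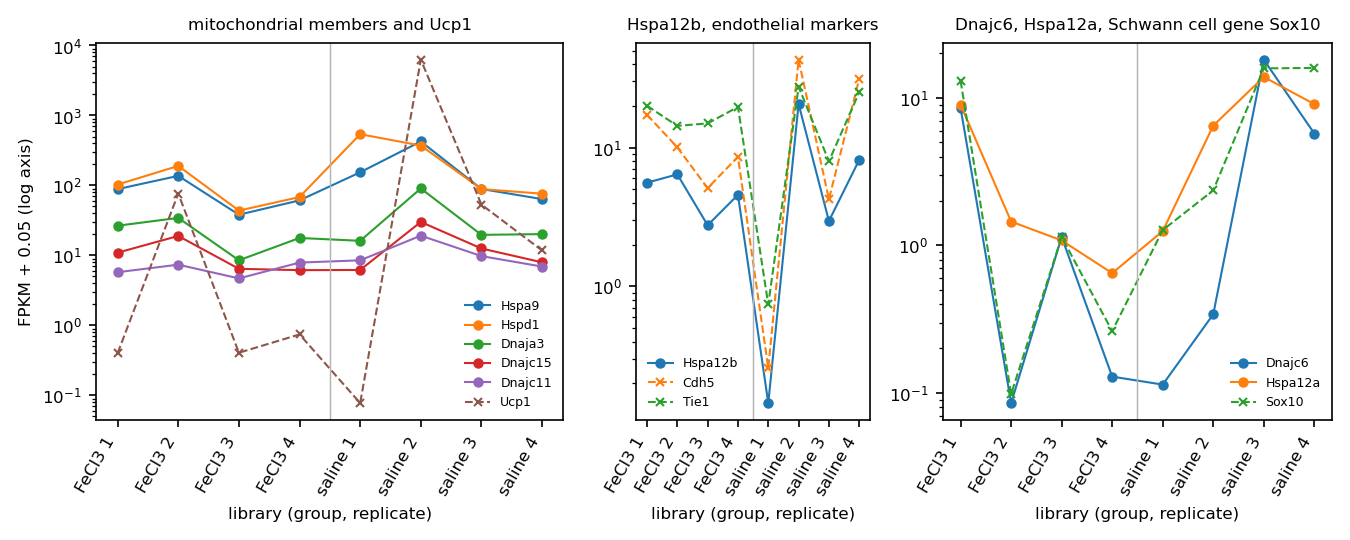
FPKM + 0.05 (log axis) in each library for 5 mitochondrial members with Ucp1 (left), Hspa12b with the endothelial genes Cdh5 and Tie1 (middle), and Dnajc6 and Hspa12a with the Schwann cell gene Sox10 (right). The panels show a picked subset of each list. Among mitochondrial members not drawn, Dnajc19 and Dnajc30 were highest in FeCl3 replicate 2, at 35.7 and 19.4 FPKM. The endothelial markers Pecam1, Vwf, Tek and Emcn, also not drawn, were highest in FeCl3 libraries. Solid lines are chaperone genes and dashed lines markers, drawn only to guide the eye: Ucp1 peaks in saline 2 at 6272 FPKM, Hspa12b has its lowest point in saline 1 with Cdh5, and Dnajc6 is high in FeCl3 1, saline 3 and saline 4.

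Partners of the chaperones outside these families were counted from fixed lists, and 0 of their genes passed limma at an adjusted p under 0.05. Of 19 tested cochaperones of Hsp90 and Hsp70, 19 had a log2 fold change below 0 (70.2% of all tested genes did). Their median was -0.44 (all tested genes: -0.25), and 5 had separate groups, all lower after FeCl3 (8.75% of all tested genes did). With median-of-ratios scaling 17 were below 0 (54.3% of all tested genes) and the median was -0.21 (all tested genes: -0.05). Under that scaling 1 had separate, lower groups (3.46% of all tested genes did). Stip1, which links Hsp70 to Hsp90, measured 32.5, 34.6, 20.6 and 38.2 FPKM after FeCl3 and 312, 72.7, 64.2 and 46.6 after saline, so that every control was higher. Its fold change was -1.54 ± 0.55 (SE, log2; limma adjusted p = 0.259), and -0.95 ± 0.29 without saline replicate 1. Ptges3, the Hsp90 cochaperone p23, and St13, the Hsp70 interacting protein, were also highest in saline replicate 1, at 253 and 196 FPKM. In all, 8 of the 19 had their highest value there (14.1% of all tested genes did).

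The cytosolic chaperonin TRiC, which folds actin and tubulin, had all 8 subunit genes highest in saline replicate 1 (14.1% of all tested genes were). The factor was smaller: Cct5, its most abundant subunit, had 181 FPKM there and 102 to 159 in the other controls. The median log2 fold change of the 8 was -0.48 (all tested genes: -0.25), with 0 separate groups. With median-of-ratios scaling it was -0.25 (all tested genes: -0.05). Prefoldin, which hands actin and tubulin to TRiC, had 0 of 5 genes highest in saline replicate 1 and a median of 0.38. Its most abundant subunit, Pfdn5, had 117, 299, 151 and 168 FPKM after FeCl3 and 90.1, 111, 96.2 and 95.3 after saline. Every FeCl3 value was higher, with FeCl3 replicate 2 at the top, but the fold change of 0.81 ± 0.30 did not pass (SE, log2; limma adjusted p = 0.261).

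Small heat shock proteins hold unfolded proteins without ATP, and 6 of 7 were tested, with a median log2 fold change of -1.45 and of -0.58 without saline replicate 1. Hspb1 had 193, 168, 205 and 187 FPKM after FeCl3 and 10156, 172, 291 and 283 after saline. Cryab had 37.4, 53.3, 71.9 and 59.6 after FeCl3 and 794, 32.1, 105 and 89.3 after saline. For both, saline replicate 1 was far above all other libraries (35.9 and 8.89 times the median of the other controls) and the remaining values overlapped. By comparison, the 6 chaperones of the endoplasmic reticulum left out of the choice had a median of -0.30, and the most abundant of them, Hspa5, had 250 FPKM in saline replicate 1 against 147 to 190 in the other controls, 1.48 times their median.

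Of 4 other genes known to respond to Hsf1, 3 had a log2 fold change below 0 and 1, the polyubiquitin gene Ubb, had one above 0. Ubb had 2193, 1190, 2381 and 1322 FPKM after FeCl3 and 540, 432, 668 and 1104 after saline. The groups did not overlap, and saline replicate 4, the control rich in haemoglobin, came nearest to the FeCl3 range. Its fold change was 1.39 ± 0.40 (SE, log2; limma adjusted p = 0.245) and 1.31 ± 0.46 without saline replicate 1. Saline replicate 1 was not high for Ubb, at 0.809 times the median of the other controls, while Serpinh1, the collagen chaperone, was 2.74 times it, at 1028 FPKM.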

How the data were processed

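PolyA RNA libraries of 4 FeCl3 and 4 saline aortas were sequenced, and the deposited values are FPKM, which the authors computed per gene and library. Per the submitters' processing notes, fastp, HISAT2, HTSeq and the build mRatBN7.2 were used; the sources used here do not give versions, annotation or gene lengths. Each column has the title of 1 sample, with replicates numbered in accession order. At most 1.31% of genes had equal fragments in any of 28 library pairs, so no pair was treated as 1 library. The labels say that samples were independent.

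Fragments and totals were recovered from the steps of the FPKM values (100% of 18090 genes whole within 0.02) and served for depth and for limma voom as an alternative. A gene entered the test with 1 FPKM or more in 4 or more libraries. Values of log2(FPKM + 1) were compared by limma 3.58.1 (R 4.3.3, two-sided, with trend), with Benjamini-Hochberg adjustment over all 11921 genes and a threshold of 0.05. This scale understates fold changes of low genes. The code was tested on simulated data. Alternatives were a pseudocount of 0.1, no filter, TPM and median-of-ratios scaling, voom, a haemoglobin covariate, each library left out, and saline replicates 2 and 3 as the only controls; median-of-ratios scaling without saline replicate 1, and other scalings of the per-library counts, were chosen after seeing the data. The genes, lists and markers were chosen with earlier results of these data known. Values in every library are given for 14 genes of known role, the 5 highest and 5 lowest fold changes, the 5 smallest p and the 5 highest means; of other lists, for up to 3 of the most abundant genes with Hspb1 and Cryab. Ucp1, Cdh5, Tie1, Egfl7, Vwf, Sox10, Hspa12a, Hspa12b, Dnajc6, Hspa9, Hspa1l and the markers listed at 0 were named after their values were seen. Python 3.11.15 and matplotlib 3.10.9 drew the figures. A marker gene of the Schwann cell list is not reported here.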

Additional observations from a re-analysis of the deposited data

Results flagged for a closer look

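Within each group of 4 libraries, the highest or lowest value of log2(FPKM + 1) was compared with its nearest neighbour by Dixon's ratio (beyond its 95% critical value for 4). Over 50 groups, 5 values were this far from the rest, and chance gives about 1 group in 20 where genes are not chosen by their values. Several of these genes were chosen by fold change or p from the same libraries, so that rate does not apply to them. Saline replicate 1 accounted for 4 of the 5: Hspa1b was highest there at 890 FPKM, Dnaja4 at 113 FPKM and the small heat shock protein gene Hspb1 at 10156 FPKM, and Dnajc17 was lowest there at 1.69 FPKM. The fifth was Hspe1 in FeCl3 replicate 2, at 427 FPKM against 126 to 155 in the other FeCl3 libraries. Hspd1, Hspa9 and Ucp1 were also highest of the FeCl3 group in that library, at 190, 137 and 76.5 FPKM.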

How the results depend on the processing

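No chaperone gene passed limma's adjusted threshold under any alternative run except FPKM rescaled to TPM, where 18 of 61 were called, all lower (27% of all tested genes were called lower), with 35 lower at an unadjusted p under 0.05 (all tested genes: 48.4%), 19 with separate groups (all tested genes: 33.3%), a median of -1.11 (all tested genes: -0.90) and 22 highest in saline replicate 3. With median-of-ratios scaling 3 were higher and 4 lower at an unadjusted p under 0.05 (all tested genes: 8.93% and 4.22%). Under this scaling 3 had separate, higher and 4 separate, lower groups (all tested genes: 4.24% and 3.46%), and 11 were highest in saline replicate 2. Without saline replicate 1 as well, 3 were higher and 6 lower at an unadjusted p under 0.05 (all tested genes: 7.2% and 3.9%). There 4 had separate, higher and 5 separate, lower groups (6.33% and 4.44%). For the 22 and 11 genes highest in a single library, no share of all tested genes was available under the same scaling. A haemoglobin covariate left 0 lower at an unadjusted p under 0.05 and a median of -0.10 (all tested genes: -0.16). Saline replicates 2 and 3 as the only controls gave 21 with separate, lower groups (all tested genes: 25.3%), a smaller comparison. With each library left out in turn, genes lower at an unadjusted p under 0.05 ran from 3 to 12. The 3 were without FeCl3 replicate 2 or 3 (all tested genes: 6.81% and 6.65%) and the 12 without saline replicate 4 (10.9%). Separate lower groups ran from 7 (all tested genes: 8.98% without FeCl3 replicate 3, 9.24% without saline replicate 3) to 15 (13.3% without FeCl3 replicate 1, 12.4% without saline replicate 4). Separate higher groups ran from 0 to 2 (2.52% of all tested genes without FeCl3 replicate 3), and the median from -0.50 to -0.31.

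Of 368 alternative values for 23 named genes, 346 kept their direction and side of the threshold, 9 passed it (all with TPM) and 13 turned direction. Those were, with the haemoglobin covariate, Hspd1 (0.66), Hspe1 (1.03), Dnaja1 (0.01) and Hsf1 (0.30). With median-of-ratios scaling without saline replicate 1 they were Hspa1b (0.27), Hspe1 (0.27), Dnajb4 (0.28) and Hsf1 (0.16), and with TPM Dnajc19 (-0.12), Dnajc24 (-0.18), Dnajc17 (-0.21), Dnajc30 (-0.40) and Dnajc1 (-0.44). The smallest adjusted p outside TPM was 0.154. The causes were not tested. No paired analysis was possible because the sample titles of the 2 groups share only 1 number, fewer than a block needs. At these totals, values under 1 FPKM rest on few fragments.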
